A study of Mus musculus with 69 samples.

Results

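The collagen genes of the mouse kidney were taken from the deposited gene counts by name. Of 24523 gene symbols with any count, 44 match the pattern Col, number, a, number, and 42 of them have at least 100 counts summed over the 65 original libraries. The 42 comprise 11 fibrillar collagen genes, the 6 genes of basement membrane collagen IV and 25 other collagen genes. Just inside the minimum lie Col22a1 with 159 counts and Col2a1 with 154, and just outside it lie Col9a2 with 94 and Col9a1 with 2. The rule itself uses names and total counts only.

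A collagen molecule is a triple helix of 3 alpha chains. Fibrillar collagens such as types I, III and V assemble into the fibers of the interstitium, and type I and type III are the bulk of the matrix laid down in renal fibrosis. Collagen IV forms sheets. Its α1α1α2 network lies in basement membranes throughout the kidney, whereas the α3α4α5 network, made by podocytes, is the main collagen of the adult glomerular basement membrane and is the network lost in Alport disease. The other collagens bind to fibrils, form beaded filaments, sit in basement membrane zones or span the cell membrane.

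Whole kidneys came from female NZB/W F1 mice, a cross that spontaneously develops a lupus-like disease with immune complex nephritis. There were 30 Young mice, taken at 12 weeks of age before disease, 27 mice with established nephritis and proteinuria, which were older (30 to 45 weeks), and 8 Remission mice. The Remission mice had been nephritic, received cyclophosphamide with CTLA4Ig and anti-CD40L, and had stayed in clinical remission until harvest, so they too were older than the Young mice. Young and nephritic kidneys were taken every 4 h, at Zeitgeber times ZT0 (lights on), ZT4, ZT8, ZT12 (lights off), ZT16 and ZT20, with 7, 4, 4, 7, 4 and 4 young and 7, 4, 4, 6, 3 and 3 nephritic mice. Remission kidneys were taken at ZT0 and ZT12 only, 4 each. Each library is 1 mouse, so p-values are over mice. Age and nephritis go together in this design and cannot be told apart, and neither can age, drugs and remission in the comparison of Remission with Young mice. The same holds for Remission against nephritic mice. Only the Remission mice received the drugs, at ages that reach above the nephritic range, and they were harvested weeks later.

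Libraries held 25257530 to 35744843 counts in young mice, 26596500 to 48075977 in nephritic mice and 13311278 to 21849912 in Remission mice. At ZT0 and ZT12, the young and nephritic libraries came from 2 RNASeq sets, read from mouse titles because no label states the set. Set 1 held 6 young and 5 nephritic mice and Set 2 held 8 of each. The Remission libraries, with 4 repeat libraries of young and nephritic mice, were treated here as a separate sequencing run. The study's methods do not describe such a run. Kidney markers were present in every group, with summed proximal tubule markers of 9758 CPM (read counts scaled to a common library total) in the median young, 5830 in the median nephritic and 5556 in the median Remission kidney. Among young libraries, 8 of 30 held over 100 counts of Cyp11b1, an adrenal cortex enzyme, and among nephritic libraries 1 of 27 did. In bulk tissue, more RNA per cell and more cells of a type cannot be told apart.

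The sequence in front of 3 transcription starts is shown for the genes on which the results turn most. These are Col3a1 and Col1a2, which rose in nephritis, and the stretch between the divergent starts of Col4a4 and Col4a3, the pair that fell together in Set 1. Letters are from RefSeq, assembly GRCm38.p6, 5′ to 3′. The Col3a1 stretch is the 250 bases before its start, chr1:45311288-45311537 on the plus strand. The Col1a2 stretch is the 123 bases before a GENCODE first exon of that gene, chr6:4505370-4505492 on the plus strand. It ends upstream of the RefSeq start, its GC boxes lie 205 and 188 bases before that start, and another GENCODE transcript begins further upstream. The Col4a4 to Col4a3 stretch is the 71 bases between both first exons, chr1:82586850-82586920, read on the Col4a4 (minus) strand. Capitals mark the match to the letters of a TATA box in Col3a1, 117 bases before its RefSeq start, and to GC boxes in Col1a2. Whether any match acts in transcription was not tested.
Col3a1: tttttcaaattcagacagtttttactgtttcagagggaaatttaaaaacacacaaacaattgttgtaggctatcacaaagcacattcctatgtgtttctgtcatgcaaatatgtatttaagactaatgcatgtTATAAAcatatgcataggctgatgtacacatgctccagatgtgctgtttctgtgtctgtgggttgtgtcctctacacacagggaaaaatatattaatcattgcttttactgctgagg
Col1a2: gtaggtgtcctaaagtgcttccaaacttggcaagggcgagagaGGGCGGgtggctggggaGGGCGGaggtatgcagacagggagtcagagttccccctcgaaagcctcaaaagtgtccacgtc
Col4a4 to Col4a3: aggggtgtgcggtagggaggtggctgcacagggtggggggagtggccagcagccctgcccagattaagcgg

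The stretches were searched on both strands for the core of the TATA box, spelled TATAAA. They were likewise searched for the GC box bound by Sp factors, spelled GGGCGG. A search for the CCAAT box used those letters themselves. The E-box that clock factors can bind was spelled CACGTG, and no match overlapped a match of another motif. The Col3a1 stretch held 1 match, to the letters of the TATA box, which 12.4% of 32851 RefSeq windows of that length hold. The Col1a2 stretch held 2 matches, both to the GC box, which 13.3% of windows of 123 bases hold. The stretch between Col4a4 and Col4a3 held none of the 4 motifs in its 71 bases, of which 69.0% are G or C. All collagen IV genes lie in head-to-head pairs. Col4a6 and Col4a5 start 1308 bases apart on chromosome X, and the first exons of Col4a1 and Col4a2 on chromosome 8 overlap by 22 bases on opposite strands. The library strand is not stated, so reads from that overlap could not be assigned to 1 of both genes.

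Before the comparison of groups, the order of the collagens was set by level per length, as mean CPM per kilobase of exon. In young kidneys Col4a3 was highest at 35.8 CPM per kilobase, with Col18a1, whose C-terminal fragment is endostatin, at 35.7. They were followed by Col4a1 at 26.9, Col4a4 at 22.5, Col4a2 at 22.4, Col27a1 at 17 and Col4a5 at 9.48. Col4a3 and Col18a1 differed by less than the spread between mice (1 SD), as did Col4a1 and Col4a4, and Col4a4 and Col4a2. Col1a1, by contrast, stood 15th at 2.60. In nephritic kidneys Col18a1 led at 60.2 CPM per kilobase, Col4a1 (43.1) and Col4a2 (36.3) came next, Col4a3 was 4th at 28.9, and Col1a1 was 8th at 12.3.

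**Figure D1:**
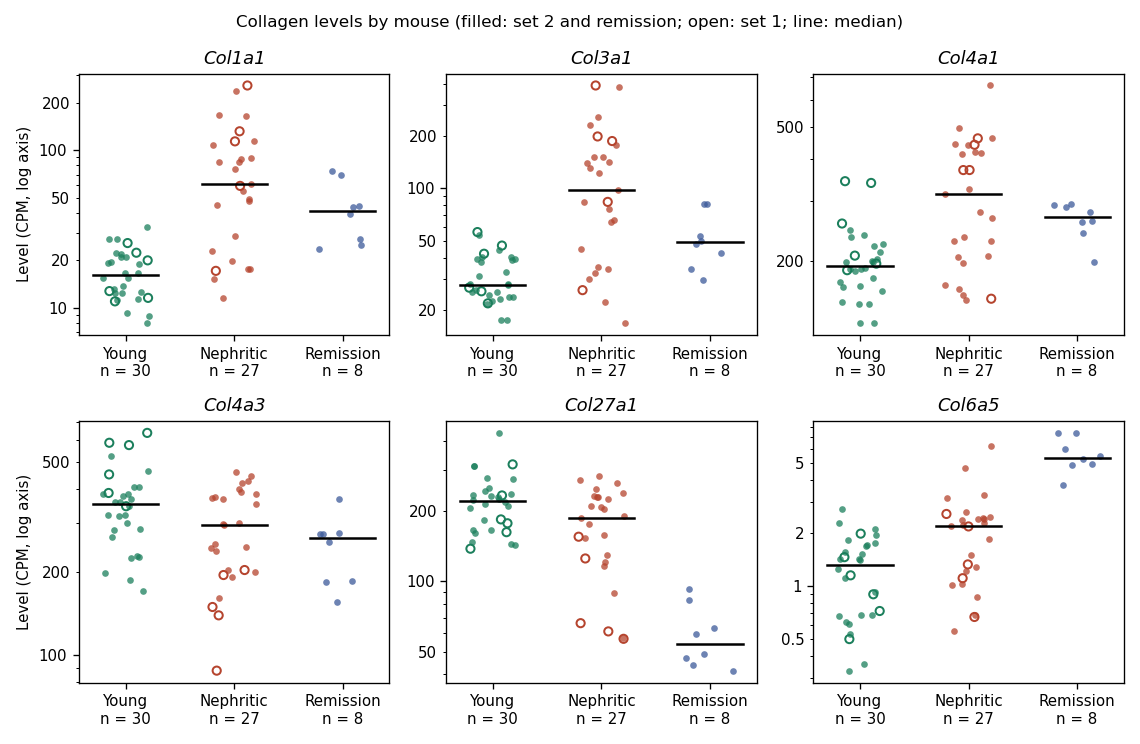
Level of chosen collagen genes in each mouse, in CPM on a log axis, for young, nephritic and Remission kidneys, with open circles for Set 1 and a bar at the median. Most nephritic kidneys lie above the young range for Col1a1 (19 of 27), whereas Col4a3 overlaps throughout, with 4 of 27 below the lowest young kidney.

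The first comparison asked which collagens differ between nephritic and young kidneys over the whole day. Of 42 collagen genes tested, 24 were higher and 6 lower in nephritic mice, against 28.1% and 33.9% of all 17521 genes tested (edgeR quasi-likelihood test, Benjamini-Hochberg adjusted over all genes, threshold 0.05). The median log2 difference was 0.50 over the collagens and -0.03 over all genes. By class, 7 of 11 fibrillar genes rose and 3 fell (median 0.81), 2 of 6 basement membrane genes rose and 3 fell (median -0.10), and 15 of the 25 other genes rose with none lower (median 0.50). No collagen had young and nephritic ranges that were fully separate, and 0.887% of all 17587 genes with the same minimum did. Low counts limit the rarest genes, since 3 collagens had under 100 counts over all young libraries and 2 over all nephritic libraries.

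**Figure D2:**
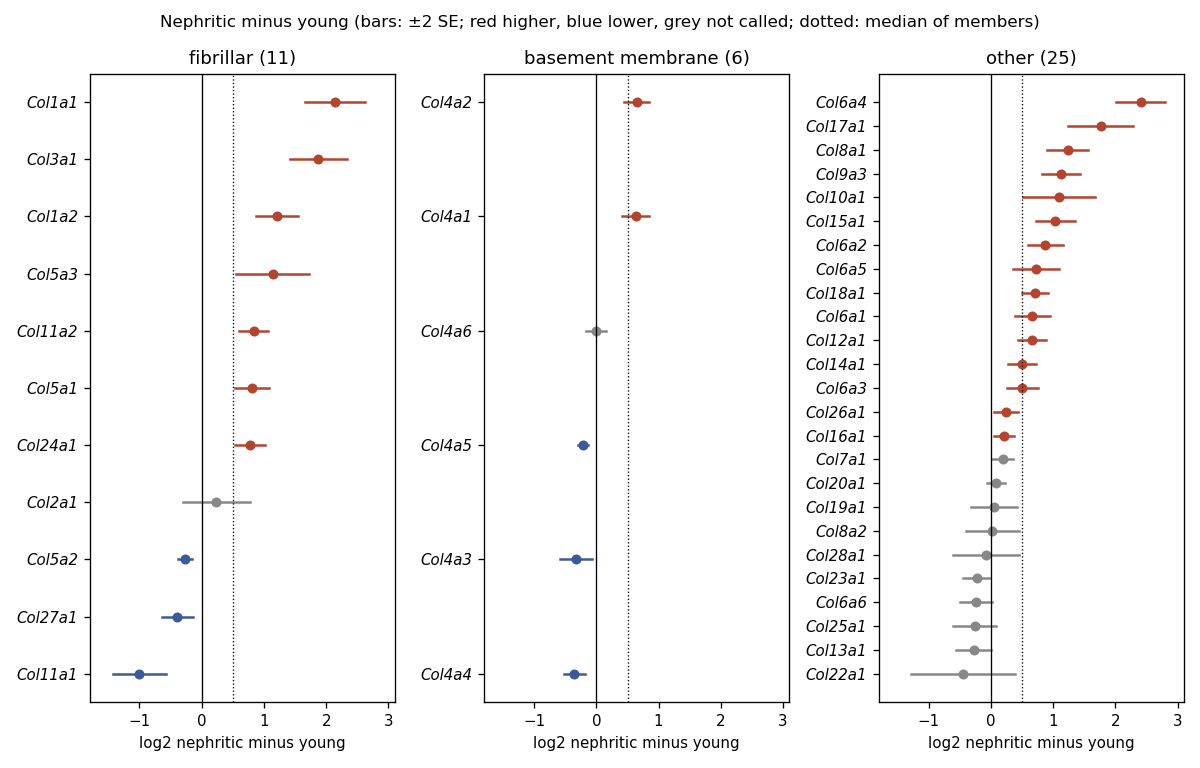
Log2 difference, nephritic minus young, for all 42 collagen genes by class, with bars of 2 standard errors to each side. Genes called higher are red, genes called lower blue and the others grey, and the dotted line is the median of the 42. Fibrillar and other collagens lie mostly right of 0, up to 2.14 for Col1a1 and 2.41 for Col6a4, and basement membrane genes lie on both sides.

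Among fibrillar collagens, the major interstitial chains rose. Col1a1, the α1 chain of type I collagen, ranged from 7.99 to 32.4 CPM in young mice (median 16.1) and from 11.6 to 257 CPM in nephritic mice (median 61.0). In 19 of 27 nephritic kidneys it was above the highest young kidney, and the remaining 8 overlapped the young range. The log2 difference was 2.14 (SE 0.24, adjusted p = 9.39e-11). Col3a1, the single chain of type III collagen, went from a median of 28 CPM (17.6 to 56.1) to 97.9 CPM (16.8 to 390), a log2 difference of 1.88 (SE 0.23, adjusted p = 1.13e-09). Here too 19 nephritic kidneys lay above the young range, and 1 lay below it. Col1a2, the partner chain of type I collagen, went from a median of 45.6 CPM (22.2 to 62.1) to 92.2 CPM (34.6 to 317), a log2 difference of 1.2 (SE 0.17, adjusted p = 2.32e-08).

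Minor fibrillar chains, which nucleate or decorate fibrils, did not all move the same way. Col11a2, a chain of cartilage type XI collagen, had a median of 2.84 CPM (1.99 to 4.81) in young and 4.63 CPM (2.55 to 15.4) in nephritic mice, with 13 nephritic kidneys above the young range. Its log2 difference was 0.84 (SE 0.11, adjusted p = 1.46e-08). Col24a1 rose by 0.78 (SE 0.12, adjusted p = 1.55e-07) from a median of 1.63 CPM (0.685 to 3.02) to 2.99 CPM (1.21 to 5.07). Col5a1 and Col5a3, chains of the fibril-nucleating type V collagen, also rose, with log2 differences of 0.81 and 1.14. Young Col5a3 ranged from 1.07 to 28.1 CPM, and without the libraries holding over 100 counts of Cyp11b1 its difference was 1.77 (adjusted p = 2.02e-07). Against this direction, Col5a2, another type V chain, was lower by a log2 difference of -0.27 (SE 0.06, adjusted p = 5.51e-05), and its young range of 33.8 to 72.9 CPM contained all nephritic values (35.1 to 61.9). Col11a1 was lower by -1.0 (SE 0.21, adjusted p = 6.09e-05), at 0.242 to 2.29 CPM in young and 0.139 to 1.67 CPM in nephritic mice. Col27a1, an abundant fibrillar-type collagen of this kidney, was lower by -0.39 (SE 0.12, adjusted p = 0.00559). Its young range was 138 to 432 CPM (median 220) and its nephritic range 56.8 to 283 CPM (median 187), with 9 nephritic kidneys below the lowest young one. Scaling by library size alone moved the median of all genes by 0.14 and took the calls of Col5a2 (-0.10, adjusted p = 0.109) and Col27a1 (-0.24, adjusted p = 0.0674).

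Collagen IV genes split by network. Col4a1 and Col4a2, the chains of the ubiquitous network, rose together. Col4a1 went from a median of 193 CPM (131 to 344) to 316 CPM (153 to 662), a log2 difference of 0.63 (SE 0.11, adjusted p = 1.59e-06). Col4a2 went from 137 CPM (98.5 to 242) to 218 CPM (118 to 467), a log2 difference of 0.65 (SE 0.10, adjusted p = 3.02e-07). For each gene, 12 of 27 nephritic kidneys were above the highest young kidney and the others overlapped. Col4a6, a chain of another collagen IV network, had a log2 difference of 0.00 (adjusted p = 0.985).

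The 3 chains of the glomerular network were lower in nephritic mice. Col4a3 ranged from 171 to 637 CPM in young mice (median 352) and from 87.8 to 459 CPM in nephritic mice (median 295), with 4 of 27 nephritic kidneys below the young range. Its log2 difference was -0.32 (SE 0.13, adjusted p = 0.0273), a call that held in 41 of 57 fits without 1 mouse (highest adjusted p 0.0896). Leaving out any of 9 Set 1 mice (CR6RU, CR6RL, CR6LL, CR3RL, CRS6LU, CRS6LL, CRS60, HIL5RU, HIL5LL) or ZT0RU, ZT12RU, ZT16RU, ZT20LU, RX7LL, RX9RU or RX8LU ended it. Col4a4 had a median of 231 CPM (167 to 359) in young and 195 CPM (86.9 to 252) in nephritic mice, a log2 difference of -0.35 (SE 0.08, adjusted p = 0.000293). Col4a5 had a median of 62.8 CPM (51.3 to 82.6) and 56.9 CPM (43.3 to 67.2), a log2 difference of -0.21 (SE 0.04, adjusted p = 3.19e-05). Below the lowest young kidney lay 7 nephritic kidneys for Col4a4 and 6 for Col4a5. Summed podocyte markers, by contrast, had a median of 448 CPM (324 to 657) in young and 568 CPM (194 to 761) in nephritic kidneys, and 4 of 6 podocyte markers were called higher and none lower.

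The decrease of Col4a3, Col4a4 and Col4a5 was not the same in both RNASeq sets. The comparison by set used the 27 young and nephritic libraries of ZT0 and ZT12 and was added after the values were seen. Of 40 collagens tested, 7 differed between sets, against 35.1% of all genes tested. In Set 1, Col4a3 lay between 346 and 637 CPM in the 6 young mice and between 87.8 and 203 CPM in the 5 nephritic mice, with no overlap. Separate ranges in Set 1 were not particular to this network. Col11a2 (1.99 to 2.73 CPM in young, 4.62 to 15.4 in nephritic mice) and Col5a2 (57.1 to 66.2 and 39.1 to 46.1) also had them. The share of all genes with separate ranges in Set 1 was not counted. In Set 2, the 8 young mice lay between 198 and 376 CPM and the 8 nephritic mice between 161 and 459 CPM. The log2 difference, nephritic minus young, was -1.69 in Set 1 and 0.10 in Set 2, and the sets differed by -1.8 (SE 0.31, adjusted p = 0.000139).

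Col4a4 and Col4a5 had the same form. Col4a4 differed by -1.27 in Set 1, where 240 to 359 CPM in young mice stood against 86.9 to 171 CPM in nephritic mice, and by -0.12 in Set 2. The sets differed by -1.15 (SE 0.21, adjusted p = 0.000215). Col4a5 differed by -0.59 in Set 1 and -0.05 in Set 2, and the sets differed by -0.53 (SE 0.10, adjusted p = 0.000208). In Set 1 its 5 nephritic values (43.3 to 57.5 CPM) were all below its 6 young values (65.5 to 82.6 CPM). Col1a1, Col3a1, Col4a1 and Col4a2 were not called between sets, and Col1a1 differed by 2.80 in Set 1 and 2.17 in Set 2.

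**Figure D3:**
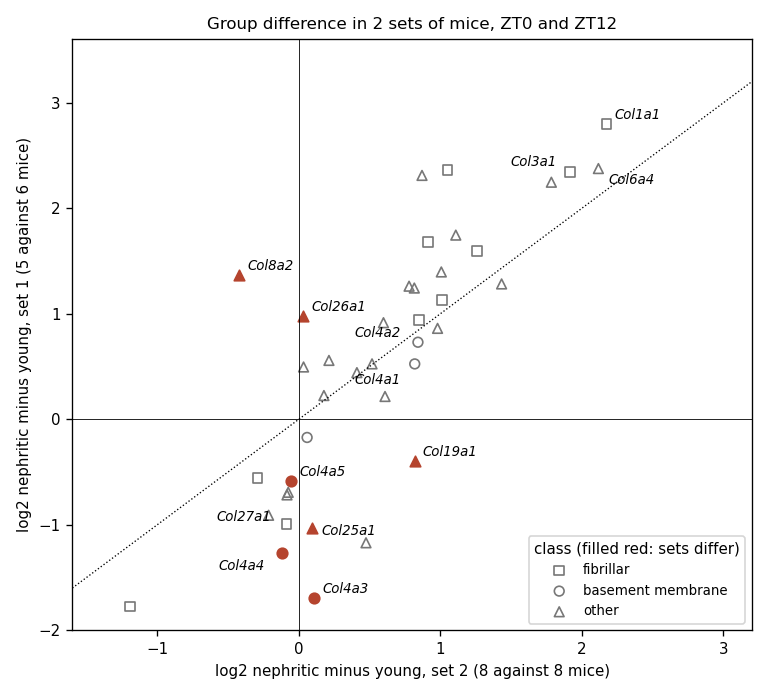
Log2 difference, nephritic minus young, of the 40 collagens at ZT0 and ZT12 in Set 2 (horizontal axis, 8 against 8 mice) and Set 1 (vertical axis, 5 against 6 mice), with a dotted line where both are equal, marker shapes for class and red for the 7 genes whose difference was called between sets. Col4a3 (-1.69 in Set 1, 0.10 in Set 2) and Col4a4 (-1.27 and -0.12) lie under the line, and Col1a1 (2.80 and 2.17) lies high on both axes.

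The sets also differed in other markers among nephritic mice. Median Lcn2, a tubular injury gene, was 300 CPM (9.20 to 709) in the nephritic mice of Set 1 and 45.0 CPM (5.45 to 393) in those of Set 2. Summed proximal tubule markers had medians of 1774 and 6586 CPM, and summed podocyte markers 442 CPM (194 to 593) and 606 CPM (383 to 719). The part of these values in the set difference was not tested. Set 1 fitted alone called Col4a3 at -1.69 (adjusted p = 9.31e-05) and did not call Col4a1 (0.52, adjusted p = 0.130). Set 2 fitted alone, with all time points, gave a Col4a3 difference of 0.0059 (adjusted p = 0.964) and also lost the calls of Col4a4 (-0.12, adjusted p = 0.0983) and Col27a1 (-0.22, adjusted p = 0.0945). Library size scaling lost Col4a3 (-0.17, adjusted p = 0.246) and Col4a5 (-0.05, adjusted p = 0.399).

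Among the other collagens, 15 rose. Col6a4, a chain of beaded filament type VI collagen, had the smallest p. It was at 0 to 0.649 CPM in young mice (median 0.195) and at 0.262 to 4.16 CPM in nephritic mice (median 0.968), with 21 nephritic kidneys above the young range. The log2 difference was 2.41 (SE 0.20, adjusted p = 2.06e-15) at a level near 1 CPM. Col8a1, a network collagen of vascular cells, went from a median of 6.56 CPM (3.79 to 14.8) to 17.9 CPM (4.88 to 48.3), a log2 difference of 1.23 (adjusted p = 9.93e-09). Col18a1, the basement membrane zone collagen that led the order per length in nephritic kidneys, went from 250 CPM (178 to 348) to 388 CPM (224 to 766), a log2 difference of 0.70 (adjusted p = 7.98e-08), with 16 nephritic kidneys above the young range.

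Col9a3 and Col17a1 also rose at low level. Col9a3, a fibril-associated chain, had a log2 difference of 1.13 (adjusted p = 1.32e-08) and medians of 0.343 and 0.752 CPM. Col17a1, the hemidesmosome collagen of epithelia, had a log2 difference of 1.77 (adjusted p = 9.35e-08) and medians of 0.510 and 1.42 CPM. The remaining members called higher were Col15a1, Col6a1, Col6a2, Col6a3, Col6a5, Col10a1, Col12a1, Col14a1, Col16a1 and Col26a1. They had folds between 1.16 for Col16a1 and 2.13 for Col10a1. The level of Col10a1 was very low, with medians of 0.0677 CPM in young and 0.136 CPM in nephritic mice.

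Genes that make, link and read collagen were counted in lists of known function, to be read beside the 28.1% of all genes higher and 33.9% lower. Of 6 crosslinking enzymes, 5 rose and none fell (median log2 difference 1.13), and Loxl2, Loxl3 and Loxl1, lysyl oxidases that join collagen chains, had differences of 1.31 (adjusted p = 2.91e-13), 1.19 and 1.06. Of 11 chaperones and propeptide enzymes tested, 7 rose and 2 fell (median 0.36), led by the procollagen proteinase Adamts2 at 1.04, the chaperone Fkbp10 at 0.81 and the proteinase enhancer Pcolce at 0.40. Of 15 prolyl and lysyl modifying genes, 5 rose and 4 fell (median 0.06). P3h2, a prolyl 3-hydroxylase known for modifying collagen IV, was lower by -0.69, P4ha2 was higher by 0.40, and the collagen glycosyltransferase Colgalt2 was lower by -0.41.

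Receptors and basement membrane partners rose more often than they fell. Of 9 collagen receptors tested, 8 rose and none fell (median 0.40), led by the leukocyte receptor Lair1 at 2.08 (adjusted p = 3.94e-20), the endocytic receptor Mrc2 at 0.88 and the integrin chain Itga11 at 1.02. Of 15 laminins and other partners, 9 rose and 2 fell (median 0.16), with Sparc, a collagen-binding glycoprotein, at 0.92 and the laminin chain Lama3 at -0.45. All differences are log2, nephritic minus young, beside the all-gene median of -0.03.

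Summed markers of other cell types are given beside these counts. Fibroblast and myofibroblast markers had medians of 150 CPM (79.9 to 204) in young and 215 CPM (97.8 to 354) in nephritic kidneys, with 3 of 6 called higher. Smooth muscle markers had medians of 73.9 and 126 CPM (3 of 4 higher), endothelial markers 255 and 236 CPM (3 of 5 lower), and lymphoid markers 5.82 and 204 CPM (5 of 5 higher). Their part in the collagen differences was not tested. Adipocyte markers had medians of 111 and 99.7 CPM with none of 5 called, and urothelial markers 31.5 and 29.8 CPM with 1 higher and 3 lower of 5. Skeletal muscle markers summed to at most 2.07 CPM in any kidney, and adrenal markers had medians of 6.48 and 5.64 CPM with 4 of 6 lower in nephritic mice. Without the 9 libraries holding over 100 counts of Cyp11b1, 24 collagens were higher and 5 lower, and Col4a3 was no longer called (-0.32, adjusted p = 0.0561).

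Within time points the number of collagens called moved with the share of all genes called. At ZT0, 20 collagens were called (15 higher, 5 lower), against 39.5% of all genes, and at ZT12 28 were called (24 higher, 4 lower), against 50% of all genes. At ZT4 there were 16, all higher, against 30.3%. At ZT16 there were 10 (8 higher, 2 lower), against 17.7%, at ZT20 3 against 5.48%, and at ZT8 1, Col6a4, against 3.66%. Col1a1 was higher by 1.88 at ZT0, 2.27 at ZT4, 2.99 at ZT12 and 2.05 at ZT16, all called, and by 1.19 at ZT8 (adjusted p = 0.348) and 2.06 at ZT20 (adjusted p = 0.0582), neither called. The ZT4 count was 10 without the young mouse ZT4LU, and the ZT16 count was 3 without the nephritic mouse RX7LL. Of all pairs of nephritic libraries, the ZT4 mice RX11RL and RX12LU were the most alike. They had 89.2 and 88.4 CPM of Col1a1 and 418 and 425 CPM of Col4a3, and were counted as separate mice. Set 2 alone gave 15 calls at ZT12, limma gave 13 at ZT0 and 5 at ZT16, and without the Cyp11b1 libraries there was 1 at ZT16 and 1 at ZT20. Among the 4 nephritic mice labelled ZT8, RX10RU had 18.3 CPM of the clock gene Arntl, where the other 3 had 2.10 to 3.80 CPM. RX10RU had 76.3 CPM of Col1a1, where the other 3 had 11.6 to 28.8 CPM, and the Col6a4 call at ZT8 ended without RX10RU, ZT8RL or ZT8LU. Nephritic Lcn2 also varied with time, with medians of 121, 84.3, 23.1, 93.1, 27.8 and 73.8 CPM from ZT0 to ZT20, and its part in the time differences was not tested.

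The next comparison asked whether collagen genes vary over the day. In young mice, 18 of 39 collagens tested differed between the 6 time points, against 39.8% of all genes, and they included 5 of 6 basement membrane genes. In nephritic mice 5 of 40 did, against 21.6%. A count in 1 group and not in the other is no test of a difference, and in the test of the difference itself 2 of 42 collagens, Col11a2 and Col13a1, passed, against 6.27% of all genes.

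The 5 young collagen IV genes called were lowest at ZT8 and highest at ZT0 or ZT20 in means that pool both sets at ZT0 and ZT12, whereas the other time points hold Set 2 only. Col4a3 was 448 ± 144 CPM (SD, n = 7) at ZT0, fell to 203 ± 27.8 (n = 4) at ZT8 and stood at 421 ± 72.9 (n = 4) at ZT20 (adjusted p = 2.79e-05). All 4 ZT8 kidneys (171 to 228 CPM) were below all 7 ZT0 kidneys (318 to 637 CPM), and the share of all genes so separated was not counted. Summed podocyte markers of young mice had medians of 497 CPM (454 to 657) at ZT0, 382 (329 to 479) at ZT8 and 461 (369 to 606) at ZT20. Their part in the time differences was not tested. Col4a2 was 190 ± 36.1 CPM at ZT0, 119 ± 6.30 at ZT8 and 119 ± 11.1 at ZT12 (adjusted p = 1.96e-06). Col4a1 went from 263 ± 57 CPM at ZT0 to 150 ± 17.2 at ZT8 (adjusted p = 9.36e-05), and Col4a4 from 286 ± 51.5 to 193 ± 17.5 CPM (adjusted p = 0.00858). For Col4a5 the extremes were 57.5 ± 5.86 CPM at ZT8 and 71.2 ± 4.62 at ZT20 (adjusted p = 0.00672). In the 4 ZT0 mice of Set 2, Col4a3 was 335 ± 27.9 CPM, against 600 ± 32.8 in the 3 of Set 1. Within Set 2, Col4a2 was 169 ± 17.8 CPM at ZT0, 173 ± 16.4 at ZT4 and 115 ± 13.4 at ZT12, so that its extremes there were ZT4 and ZT12.

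The other young collagens called did not share 1 peak time. Col27a1 was lowest at ZT4, at 167 ± 30.8 CPM, and highest at ZT16, at 332 ± 68.7 CPM (adjusted p = 7.45e-05). Col7a1, the anchoring fibril collagen, also peaked at ZT16, at 12.2 ± 1.31 CPM against 6.57 ± 1.29 at ZT0 (adjusted p = 0.00734). Col8a1 peaked at ZT0, at 10.9 ± 2.47 CPM against 5.21 ± 0.942 at ZT8 (adjusted p = 0.000859), and Col18a1 was 291 ± 29.9 CPM at ZT4 and 196 ± 9.79 at ZT12 (adjusted p = 0.000492). Col3a1 went from 43.0 ± 12.7 CPM at ZT0 to 24.0 ± 4.56 at ZT8 (adjusted p = 0.0423), a call that held in only 13 of 30 fits without 1 mouse. The remaining young calls were Col13a1, Col19a1, Col24a1, Col5a3, Col23a1, Col26a1, Col6a1 and Col6a5.

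Of the 8 young libraries with over 100 counts of Cyp11b1, most lay at ZT12 and ZT16. Without them, 11 young collagens were called, among them Col4a1, Col4a2, Col4a3, Col4a4, Col18a1, Col27a1, Col3a1 and Col8a1. Col13a1, Col7a1, Col4a5, Col5a3, Col6a1, Col23a1, Col26a1 and Col6a5 were then no longer called. Set 2 alone called 12 young collagens and lost Col4a4 (adjusted p = 0.0542), Col3a1 (adjusted p = 0.328), Col24a1, Col26a1, Col5a3, Col6a1 and Col6a5.

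**Figure D4:**
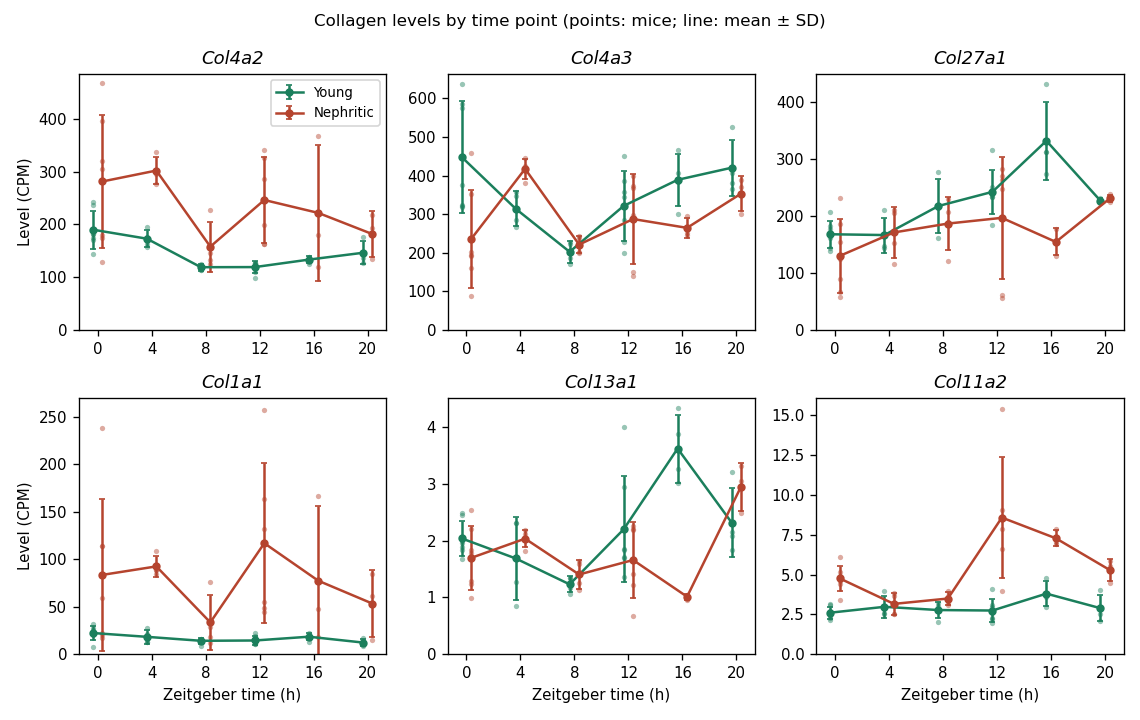
CPM by Zeitgeber time (h) of 6 collagens in young and nephritic mice, with 1 pale point per mouse, lines through the means and bars of 1 SD, cut off at the axis where they reach under 0. Young Col4a3 is lowest at ZT8 (203 ± 27.8 CPM), and at ZT16 Col13a1 of the nephritic mice (0.949 to 1.05 CPM) lies below that of the young mice (3.00 to 4.33 CPM).

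The 2 collagens whose time course differed between groups did so in different ways. Col13a1, a transmembrane collagen, peaked in young mice at ZT16, at 3.62 ± 0.598 CPM (n = 4), when it was at its low of 1.01 ± 0.0546 CPM (n = 3) in nephritic mice. The young values of 3.00 to 4.33 CPM did not overlap the nephritic values of 0.949 to 1.05 CPM. At ZT20 the nephritic mice had 2.95 ± 0.422 CPM and the young mice 2.32 ± 0.609 CPM. The test of the difference in time course gave an adjusted p of 0.0139. Of the 4 young ZT16 mice, 3 had over 100 counts of Cyp11b1, and without such libraries the difference was not called (adjusted p = 0.06).

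Variation of Col11a2 over the time points was not called in young mice (F test, adjusted p = 0.359). It stood at 2.61 ± 0.378 CPM at ZT0, 2.74 ± 0.722 at ZT12 and 3.80 ± 0.763 at ZT16. In nephritic mice it ranged from 3.16 ± 0.707 CPM at ZT4 to 8.57 ± 3.81 (n = 6) at ZT12 and 7.27 ± 0.494 (n = 3) at ZT16. The difference in time course had an adjusted p of 0.0120, and it was not called in Set 2 alone (adjusted p = 0.105). A fit of a 24 h cosine curve called neither gene (adjusted p = 0.112 for Col11a2 and 0.281 for Col13a1).

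Col7a1, Col6a4 and Col20a1 also varied over time within nephritic mice. Col7a1 was highest at ZT16 there as well, at 14 ± 2.56 CPM (adjusted p = 0.0163). Col6a4 was highest at ZT12, at 1.95 ± 1.17 CPM, and lowest at ZT8, at 0.640 ± 0.322 (adjusted p = 0.0269). Col20a1, a fibril-associated collagen, was 7.77 ± 1.22 CPM at ZT12 and 4.88 ± 0.870 at ZT4 (adjusted p = 0.0302). Set 2 alone called neither Col6a4 (adjusted p = 0.0553) nor Col20a1 (adjusted p = 0.109), and neither was called without HIL5RU, the ZT12 mouse with 4.16 CPM of Col6a4. Between ZT0 and ZT12 alone, edgeR called 0 of 40 collagens in young mice, against 3.66% of all genes, 2 in nephritic mice (Col11a2 and Col6a4), against 3.52%, and 0 in Remission mice, against 0.0475%. At an unadjusted p under 0.05 there were 7, 5 and 1. The adjusted Remission count stayed 0 without s9, a mouse labelled ZT12 whose Arntl (27.6 CPM) lay within the range of the ZT0 Remission mice.

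Remission kidneys were compared with nephritic and young kidneys at ZT0 and ZT12, over 35 libraries. The run, the drugs, age and the remission cannot be told apart in this comparison. For the run, 4 mice had repeat libraries, which were grouped with the Remission run. Of these repeats, 3 lay nearest their own original library (r = 0.995 to 0.997 over 14164 genes). The repeat labelled RX11RU lay nearest another nephritic mouse, RX11LU (r = 0.995, against 0.973 with its own original). Among the 4 Remission mice labelled ZT12, 1 had 27.6 CPM of Arntl, where the other 3 had 3.2 to 4.92 CPM and the ZT0 mice 22.7 to 29.2 CPM. Fits without each of these cases are given beside the values they change.

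Against nephritic mice, 17 of 40 collagens were lower and 4 higher in Remission, against 20.5% and 17% of all 16841 genes. The median log2 difference was -0.50, and -0.02 over all genes. Fibrillar genes made up 7 of the lower calls, with a class median of -1.25. Col24a1 had the smallest p. It lay at 0.489 to 1.53 CPM in the 8 Remission mice (median 0.899) and was lower by a log2 difference of -1.77 (SE 0.24, adjusted p = 9.31e-07). Col11a2 (-1.49, adjusted p = 8.4e-06), Col27a1 (-1.54, adjusted p = 1.33e-05), Col4a5 (-0.53, adjusted p = 1.65e-05) and Col20a1 (-0.83, adjusted p = 2.66e-05) followed.

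The major interstitial chains lay between the groups. Col1a1 was at 23.6, 27.3, 39.2 and 43.6 CPM in the ZT0 Remission mice and at 25.0, 44.0, 69.2 and 73.7 CPM in the ZT12 Remission mice. All 8 are above the young median of 16.1 CPM, 5 are above the highest young kidney, and all are within the nephritic range. Against nephritic mice the log2 difference was -1.14 (SE 0.44, adjusted p = 0.0380), a call that held in 25 of 35 fits without 1 mouse. It ended without HIL5RU, RX10LU, RX12RU, RX8RU, s1, s10, s3, s4, s8 or s9. Against young mice it was 1.25 (SE 0.42, adjusted p = 0.0169). Col3a1 was lower than in nephritic mice by -1.35 (SE 0.42, adjusted p = 0.0119), with a Remission range of 29.7 to 81.4 CPM, and this call ended without RX12RU. Without the ZT12 mouse of high Arntl (s9), Col1a1 had -1.14 (adjusted p = 0.0538) and Col3a1 -1.34 (adjusted p = 0.0199) against nephritic mice.

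The repeated mice bear on Col1a1 directly. In the 3 repeats that matched their originals, Col1a1 was higher in the Remission run by 0.41, 0.27 and 0.58 on the log2 scale, whereas Col3a1 differed by -0.01, -0.03 and -0.12. With the repeats in the fit as a bridge between runs, and RX11RU left out, Col1a1 in Remission differed from young by 0.24 (adjusted p = 0.882) and from nephritic by -2.35 (adjusted p = 0.00633). In that fit the repeats counted as further libraries, not paired with their originals, so its p-values are not over mice alone. Its run term also takes up how the repeated mice differ from their groups. RX12RU had 238 CPM of Col1a1, where the nephritic median was 61.0. Both Col1a1 values moved further than the repeats themselves differed. All values with bridged runs below bear this limit.

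Against young mice, 5 of 40 collagens were higher and 6 lower, against 21.2% and 20.4% of all genes. The lower calls included Col27a1, Col4a5 and Col5a2. Col27a1 lay at 41.5 to 92.8 CPM in all 8 Remission mice, below every young kidney (138 to 432 CPM), and 5 nephritic kidneys lay within that Remission range. The share of all genes with separate Remission and young ranges was not counted, for this gene or for Col4a5 and Col6a5 below. It was lower than in young mice by -1.98 (SE 0.26, adjusted p = 3.34e-07) and, with the bridged runs, by -1.74. Col4a5 lay at 27.9 to 43.5 CPM, below every young kidney (51.3 to 82.6 CPM), and was lower by -0.80 (SE 0.09, adjusted p = 1.82e-08), and by -0.69 with bridged runs. Col5a2, at 26.9 to 46.3 CPM, overlapped the young range and was lower by -0.84 (adjusted p = 1.80e-07), and by -0.71 with bridged runs.

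Of 6 type VI chains, Col6a5, Col6a4 and Col6a2 were called higher than in young mice, and of these Col6a5 was also called higher than in nephritic mice. Col6a5 lay at 3.73 to 7.40 CPM in Remission, above every young kidney (0.329 to 2.74 CPM), with a log2 difference of 1.71 from young (SE 0.27, adjusted p = 5.76e-06) and of 1.2 from nephritic mice (adjusted p = 0.000655). With bridged runs the first was 1.40 and called, and the second 0.97 and not called. Col6a4 was higher than in young mice by 2.19 (adjusted p = 1.24e-05), and by 2.72 with bridged runs. The 3 other collagens higher than in nephritic mice were Col13a1 (0.85), Col11a1 (1.27) and Col23a1 (0.61). Of the glomerular network, Col4a3 was lower than in young mice by -0.69 (adjusted p = 0.0423), at -0.33 and not called with bridged runs.

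Supporting genes were mixed in Remission. Against nephritic mice, 3 of 6 crosslinking enzymes were lower and none higher, among them Loxl2 (-1.29) and Lox (-1.19), beside 20.5% of all genes lower and 17% higher. Of 15 basement membrane partners, 6 were lower and 1 higher, with Lama5 at -0.88 and Sparc at -0.95. The other lists held calls both ways. Ppib (0.61) was higher and P4ha2 (-0.47) lower among prolyl and lysyl modifying genes. Tll1 (1.71) was higher and Bmp1 (-0.62) lower among chaperones and propeptide enzymes. Among receptors, Ddr2 (0.66) was higher and Itga10 (-1.19) lower. Against young mice, Loxl1 (1.12) and Loxl3 (0.97) were higher, and the other crosslinking enzymes were not called. Fibroblast markers summed to a median of 171 CPM (143 to 226), podocyte markers to 506 CPM, endothelial markers to 402 CPM, smooth muscle markers to 93.2 CPM and lymphoid markers to 341 CPM in Remission, and their part in these differences was not tested.

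Within the 27 nephritic mice, collagens were set against Lcn2 of the same kidney, as a measure of how far tubular injury had gone. Lcn2 was within the young range (up to 17.2 CPM) in 8 of the 27. Of 40 collagens tested, 21 had a positive slope and 5 a negative one, against 24.3% and 23.6% of all genes, with a median slope of 0.11 and 0.00 over all genes. The slope is the log2 change of a gene per doubling of Lcn2, with time point and set in the fit. The smallest p-values were those of Col18a1 (0.23, SE 0.02, adjusted p = 1.39e-08), Col4a1 (0.25, SE 0.02, adjusted p = 1.44e-08), Col12a1 (0.23), Col8a1 (0.38) and Col4a2 (0.23). Col1a1 was steeper at 0.54 (SE 0.06, adjusted p = 1.14e-07). Cell type markers moved with Lcn2 as well. All 5 proximal tubule markers had negative slopes (Lrp2 -0.24, adjusted p = 5.28e-05), as did 2 of 6 podocyte markers, and 4 of 6 fibroblast and 3 of 4 smooth muscle markers had positive ones (Acta2 0.19, adjusted p = 0.000216). Their part in the collagen slopes was not tested.

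**Figure D5:**
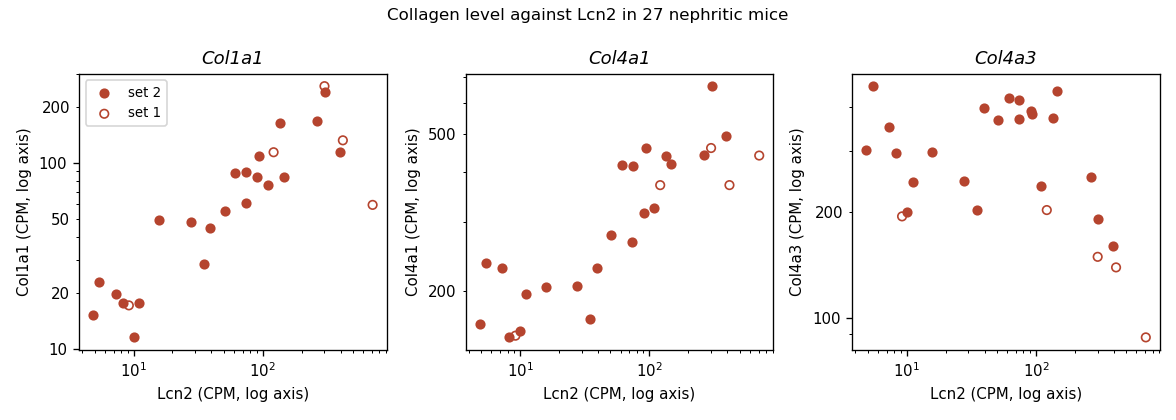
Collagen level against Lcn2 in each of 27 nephritic kidneys, both in CPM on log axes, with filled circles for Set 2 and open circles for Set 1. Col1a1 and Col4a1 climb with Lcn2 (Pearson r = 0.88 and 0.87 on the log2 scale), and Col4a3 had r = -0.43, or -0.16 in the 22 mice of Set 2.

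The negative slopes belonged to Col27a1 (-0.20, adjusted p = 0.000618), Col4a4 (-0.08), Col23a1 (-0.15), Col11a1 (-0.26) and Col4a3 (-0.11, SE 0.03, adjusted p = 0.00814). The Col4a3 slope was -0.09 in Set 2 alone (adjusted p = 0.0373), and it was not called without the nephritic library holding Cyp11b1 (-0.08, adjusted p = 0.0566). As a description over the 27 nephritic kidneys, which share a tissue and a normalization, log2 levels of Col1a1 and Lcn2 had a Pearson r of 0.88, and Col3a1 followed Col1a1 at r = 0.99. Some collagens that were higher in nephritic mice had slopes near 0. Col11a2 had a slope of 0.04 (SE 0.03, adjusted p = 0.330) and Col6a4 one of -0.01 (SE 0.07, adjusted p = 0.932). For Col4a5 and Col5a2, which were lower in nephritic mice, the slopes were 0.01 (SE 0.01) and -0.0037 (SE 0.02).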

How the data were processed

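Kidney RNA of 65 NZB/W F1 mice was sequenced from polyA-selected libraries, and 4 libraries were repeated, giving 69 tables. The authors deposited a table of raw read counts for each library, with 1 whole number for each gene symbol. The submitters' processing notes name HISAT and mm10, and the study's methods name BWA. Paired and single ends are both named there, and the library strand and the gene annotation are not given in the sources used here. Of 24538 symbols, 15 were empty in every library. C57BL/6 libraries and arrays were not analysed here.

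Counts were scaled by TMM factors and tested with the edgeR 4.0.16 quasi-likelihood test (R 4.3.3). Genes needed at least 100 counts over the libraries of a fit. P-values were adjusted by Benjamini-Hochberg over all genes tested, with a threshold of 0.05, and SE is the standard error of the log2 difference. Time point and RNASeq set were covariates. The set was read from mouse titles, whose numbers match the study's sample list. Printed CPM are counts divided by TMM-scaled library totals. Lengths per kilobase came from GENCODE exons of GRCm38. Time courses were F tests of 5 time terms, and their difference an F test of 5 group by time terms. Counting error is small at 13311278 to 48075977 counts per library, so spread between mice sets the precision except below about 1 CPM.

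Alternatives were DESeq2 1.42.0, limma 3.58.1, other size factors, no filter, no set term, Set 2 alone and repeats in place of originals. Others were a run term bridged by repeats as unpaired libraries, a cosine fit, Havcr1 for Lcn2, and leaving out mice. The collagens and the lists of processing genes, receptors, partners and markers were chosen with earlier results of these data known. Named with values were Col1a1 and Col4a3, the 5 smallest p per class, members against their class, members called over time, the 5 smallest p for Remission and Lcn2, and the 3 smallest p per list. A gene that this rule selects is not reported here. Genes outside this rule were named after their values were seen. The scripts were tested on simulated data.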

Additional observations from a re-analysis of the deposited data

Results flagged for a closer look

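In 83 groups of 4 to 10 mice checked, 2 mice stood far from the others of their group, and chance alone flags about 1 in 20 groups. For Col1a1 in young kidneys at ZT8, the mouse ZT8LL had 9.234 CPM where the other 3 had 15.42 to 16.59 CPM. For Col4a5 in the nephritic mice of Set 1, CRS60 had 57.46 CPM where the other 4 had 43.27 to 46.55 CPM, and CRS60 also had the highest Lcn2 of that set (709 CPM).

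Effects that differed between groups by a test of the difference were the time courses of Col11a2 (edgeR, adjusted p = 0.01198) and Col13a1 (adjusted p = 0.01385) in nephritic against young mice. They were also the nephritic minus young differences in Set 1 against Set 2 of Col4a3 (adjusted p = 0.0001389), Col4a5 (adjusted p = 0.0002078), Col4a4 (adjusted p = 0.0002149), Col26a1 (adjusted p = 0.01059), Col8a2 (adjusted p = 0.02466), Col19a1 (adjusted p = 0.03065) and Col25a1 (adjusted p = 0.04997). In Set 1 minus Set 2, Col26a1 was higher by 0.95 and Col8a2 by 1.79 on the log2 scale, and Col19a1 and Col25a1 were lower, by -1.21 and -1.13. Of these 4, Col26a1 is the one with levels over 5 CPM in most kidneys.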

How the results depend on the processing

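No paired analysis was possible because replicate numbers were given in accession order and name mice only. The 24 collagens higher in nephritic than in young mice stayed within 24 and 26 under other size factors, DESeq2, limma and no filter. The 6 lower ones were 2 with library size scaling, which shifts the median of all genes by 0.14, and 3 in Set 2 alone, where Col4a3 changed sign (0.0059). The cause was not tested in any of these cases.

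Calls by time point were 13 at ZT0 in place of 20, 0 at ZT8 in place of 1 and 5 at ZT16 in place of 10 with limma, 15 at ZT12 in place of 28 in Set 2 alone, and 1 at ZT20 in place of 3 without the filter. Without libraries holding over 100 counts of Cyp11b1, they were 1 at ZT16 and 1 at ZT20, the young time course had 11 calls in place of 18 and the difference in time course 1 in place of 2. Both alternatives leave fewer mice. A cosine fit gave 3 calls in nephritic mice in place of 5 and 0 for the difference.

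Collagens higher in Remission than in young mice were 8 in Set 2 alone, 3 without the Cyp11b1 libraries, 2 with a run term and 2 with that term without RX11RU, in place of 5. With the last setting the 6 lower ones were 3, the 4 higher than in nephritic mice were 2, and Col19a1 changed sign against nephritic mice (0.35, adjusted p = 0.781). Between ZT0 and ZT12, young calls were 1 in place of 0 with limma or Set 2 alone. Nephritic calls were 0 in place of 2 without the filter or in Set 2 alone, and 1 without the set term or the Cyp11b1 libraries.

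Leaving out 1 mouse at a time gave 4 to 8 collagens higher in Remission than in young mice (8 without RX12RU), 0 to 1 and 0 to 4 (4 without RX10RL) between ZT0 and ZT12 in young and nephritic mice, 10 to 16 at ZT4, 0 to 1 at ZT8, 3 to 11 at ZT16 and 1 to 3 at ZT20. It gave 13 to 22 in the young time course (13 without ZT8LL) and 3 to 6 in the nephritic one (3 without HIL5RU or RX8LL). The alternative without libraries rich in Adipoq was not run, since no library met its limit.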
